A study of Homo sapiens with 48 samples.

Results

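Epithelial-mesenchymal transition (EMT) is the program by which epithelial cells give up their junctions and take on migratory features. The transcription factors SNAI1, SNAI2, ZEB1, ZEB2, TWIST1 and TWIST2 drive it, in large part by repressing CDH1, the gene of the epithelial adhesion molecule E-cadherin. CDH2 encodes N-cadherin, which mesenchymal cells use instead, and VIM encodes vimentin, the intermediate filament protein of mesenchymal cells. NF-κB is known as an inducer of several of these factors in carcinoma cells. TNFα activates its canonical arm, which works through RELA, and TWEAK its noncanonical arm, which works through RELB.

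RELA, RELB and H3K27ac peaks were examined at these 9 genes in L3.6pl, an established human pancreatic ductal adenocarcinoma cell line. A peak counted for a gene when it overlapped the GENCODE gene body on hg38 or the 50 kb on either side, and all 9 of the 20033 protein-coding genes could be placed. RELA, RELB and H3K27ac, an acetylation of histone H3 found at active promoters and enhancers, were profiled by ChIP-seq in cells given PBS (vehicle), TNFα for 30 min or 6 h, or TWEAK for 30 min or 6 h. FOSL1, a subunit of the AP-1 transcription factor, was profiled in vehicle-treated cells alone. All groups used the same line, with no difference of genotype, and the labels do not give the ligand doses or the duration of the vehicle treatment. Each of the 16 conditions had 3 replicates, 48 samples in all, but 1 peak list of merged replicates. Values below therefore have no replicate error and no test between conditions was possible.

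The read depth behind each list is unknown, and a list can be longer because more reads entered it. The lists of RELA and RELB held between 2414 and 11266 peaks, and the share of them in tandem repeats ran from 26.3% for RELA after TNFα for 30 min to 94.8% for RELB after TWEAK for 30 min. The peak names of the longest list carry replicate 1 beside the word merged, so the pooling of all 3 replicates there is not settled. In vehicle, H3K27ac marked the starts of 5 of 5 epithelial marker genes (KRT8, KRT18, KRT19, KRT7 and EPCAM). It marked 1 of 4 leukocyte, 1 of 3 endothelial and 1 of 4 fibroblast marker starts (CD68, VWF and COL1A1), and those of PTPRC, PECAM1 and DCN had no peak.

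The 9 windows together held 8 RELA or RELB peaks, which merged into 7 separate sites at 5 genes (SNAI1, SNAI2, ZEB2, TWIST2 and VIM). ZEB1, TWIST1, CDH1 and CDH2 had no RELA or RELB peak in any of the 10 lists. RELA after TNFα for 30 min gave 5 of the peaks, RELA after TNFα for 6 h gave 2 and RELB after TWEAK for 6 h gave 1. The site in intron 1 of VIM was called for both RELA and RELB, and each of the other 6 sites appeared in a single list. No site lay in a tandem repeat, the highest self-match being 0.367 against the limit of 0.4.

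The sequences under 5 of these sites are printed below because they show which of these 5 carry a binding motif of NF-κB or AP-1. The SNAI2 site and the VIM site at −11642 bp from the start are not printed. They were read from the plus strand of hg38, 5′ to 3′, with motif matches in capitals. Matches to the κB consensus are in capitals at VIM, SNAI1 and the ZEB2 site in the gene body, and matches to the AP-1 motif TGANTCA at TWIST2. The ZEB2 site beyond the gene end had neither and is shown for its change in H3K27ac.
VIM intron 1, chr10:17229028-17229167: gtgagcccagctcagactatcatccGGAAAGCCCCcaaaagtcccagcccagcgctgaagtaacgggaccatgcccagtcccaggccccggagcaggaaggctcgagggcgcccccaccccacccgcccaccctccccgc
SNAI1 downstream, chr20:50023269-50023399: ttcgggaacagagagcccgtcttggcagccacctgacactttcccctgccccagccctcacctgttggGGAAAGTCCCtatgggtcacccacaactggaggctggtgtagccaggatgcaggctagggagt
ZEB2 gene body, chr2:144365104-144365133: gtcatgttcaGGGAAACTCCagtctggcca
TWIST2 intron 1, chr2:238864341-238864469: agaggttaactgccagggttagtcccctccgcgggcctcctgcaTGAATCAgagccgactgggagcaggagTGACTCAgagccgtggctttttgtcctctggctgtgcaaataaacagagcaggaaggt
ZEB2 beyond the gene end, chr2:144358160-144358323: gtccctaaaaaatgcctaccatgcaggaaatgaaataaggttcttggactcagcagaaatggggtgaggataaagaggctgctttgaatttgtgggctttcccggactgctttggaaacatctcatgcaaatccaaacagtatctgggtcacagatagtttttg
The bases of the VIM site that a shorter VIM transcript uses as UTR are left out, and the ZEB2 site in the gene body, which lies in a UTR, is cut to 30 bases.

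Motifs were searched on both strands, where the AP-1 motif reads the same, and the κB matches at VIM and SNAI1 lie on the minus strand. The middle of the κB match was 11 bp from the RELB summit at VIM, and 28 bp and 13 bp from the RELA summits at SNAI1 and ZEB2. Over all peaks, the 200 bp around the summit held a κB match in 37.5% of RELA peaks after TNFα for 30 min, 30.4% of RELA peaks after TNFα for 6 h and 27.2% of RELB peaks after TWEAK for 6 h. The AP-1 motif stood in 14.4%, 15.4% and 14.8% of the same peaks and in 44.4% of FOSL1 peaks. FOSL1 peaks overlapped the SNAI2 site, the ZEB2 site beyond the gene end and the VIM site at −11642 bp. Each of these FOSL1 peaks held the AP-1 motif in the 200 bp around its summit. The RELA peaks there held neither motif in the 200 bp around theirs. A match is a string of letters in the window and does not show which protein was bound.

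**Figure D1:**
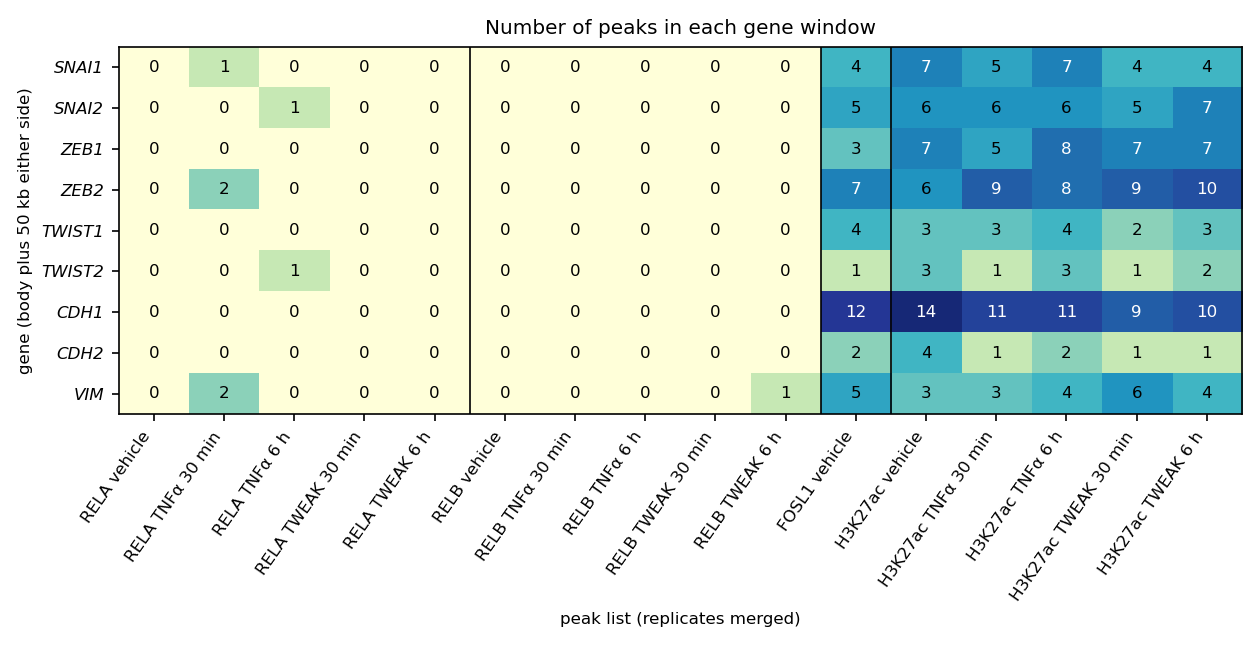
Number of peaks (cell values) in the window of each gene (rows, body plus 50 kb on either side) in each of the 16 peak lists (columns). RELA and RELB peaks are few, at most 2 per gene and list, while FOSL1 and H3K27ac peaks occur in every window.

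In none of the 10 RELA and RELB lists did the 9 genes have a peak more often than protein-coding genes as a whole. After TNFα for 30 min, 3 of 9 genes had a RELA peak against 48.1% of all genes, and after TNFα for 6 h 2 of 9 against 26.8%. For RELB after TWEAK for 6 h it was 1 of 9 against 13.6%. The other 7 lists gave 0 of 9. In those lists 5.05% of all genes had a peak for RELA in vehicle, 7.58% for RELA after TWEAK for 30 min and 5.12% after 6 h. For RELB the shares were 3.06% in vehicle, 1.59% and 3.87% after TNFα for 30 min and 6 h, and 1.41% after TWEAK for 30 min, so a count of 0 among 9 genes is close to what these lists gave elsewhere. A peak of any of the 10 lists was found at 5 of 9 genes against 50.7%.

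These windows are longer than most, with a median of 196.6 kb against 127.5 kb over all genes. Per Mb of window, RELA after TNFα for 30 min gave 2.79 peaks at the 9 genes and 3.84 over all genes. RELA after TNFα for 6 h gave 1.12 and 1.68 peaks per Mb, and RELB after TWEAK for 6 h 0.559 and 0.765. All 7 RELA peaks had a fold enrichment over input below the median of their list, between 4.31 and 5.75, where the medians were 5.93 after TNFα for 30 min and 5.74 after 6 h.

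**Figure D2:**
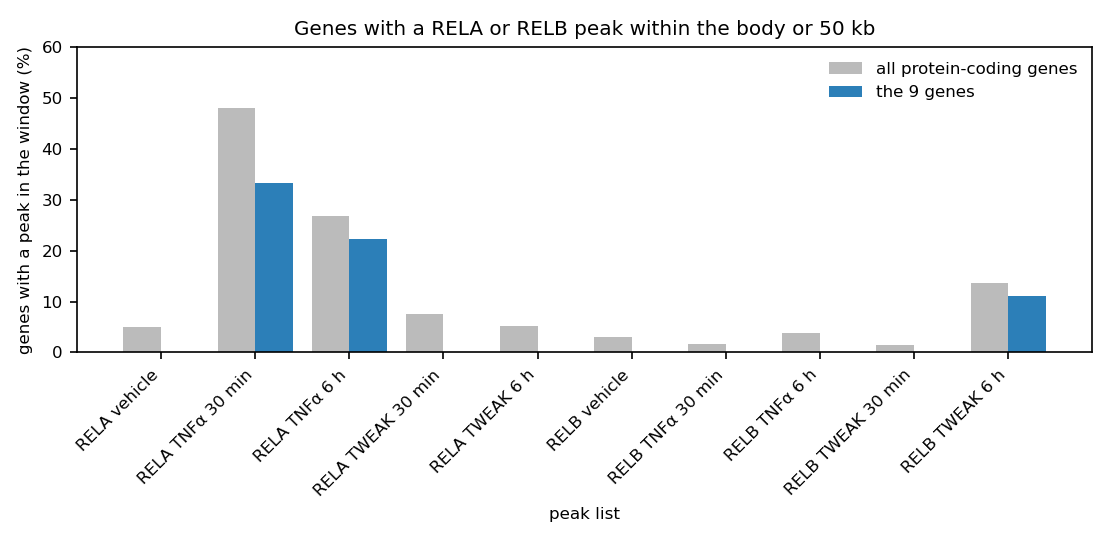
Percent of genes with at least 1 peak in the window (bars), for all 20033 protein-coding genes (grey) and the 9 genes (blue), in each RELA and RELB list. The blue bar is below the grey bar in all 10 lists, and in 7 lists it is at 0.

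VIM carried the site called for both factors. In intron 1, RELA was called after TNFα for 30 min with a fold enrichment of 5.28 and a −log10 q of 6.41, and RELB after TWEAK for 6 h with a fold enrichment of 9.92 and a −log10 q of 17.4. The 2 summits lay 830 bp and 827 bp downstream of the start of the MANE transcript, the reference transcript of the gene. No RELA peak was called there in vehicle, after TNFα for 6 h or after TWEAK at either time, and no RELB peak in vehicle, after TNFα at either time or after TWEAK for 30 min. The RELB peak ranked 540 of 4052 in its list and the RELA peak 7179 of 11266, so 86.7% and 36.2% of their lists were weaker. The ranks set the 2 peaks against different lists, and the fold values of 2 antibodies are not on the same scale.

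VIM (ENSG00000026025.16, chr10:17228241-17237593, plus strand) has 10 annotated transcripts, and several begin close to the site. The RELA summit was at −207 bp from the start shared by 2 of them and 205 bp upstream of exon 2 of the MANE transcript. The strongest FOSL1 peak at VIM had a fold enrichment of 16.1 and a summit at 292 bp from the MANE start. It did not overlap the RELA and RELB site: the gap was 233 bp, and the FOSL1 and RELB summits were 535 bp apart. H3K27ac covered the start and the site in all 5 lists as a broad peak of 2907 to 3219 bp, with a fold enrichment of 2.83 in vehicle, 2.73 and 2.84 after TNFα for 30 min and 6 h, and 2.70 and 2.97 after TWEAK for 30 min and 6 h. The acetylation at the start was thus already present in vehicle and spanned a narrow range over the lists.

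A RELA peak lay at −11642 bp from the VIM start (chr10:17216486-17216628) after TNFα for 30 min, with a fold enrichment of 4.57 and a −log10 q of 3.52. It overlapped a FOSL1 peak of fold enrichment 10.2 and was acetylated in all 5 lists, with H3K27ac fold values from 3.17 after TNFα for 30 min to 4.10 after TWEAK for 30 min. Neither motif stood under the RELA peak. The window of VIM also reaches the start of TRDMT1, an RNA methyltransferase gene, where the third acetylated region found in all 5 lists was located.

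**Figure D3:**
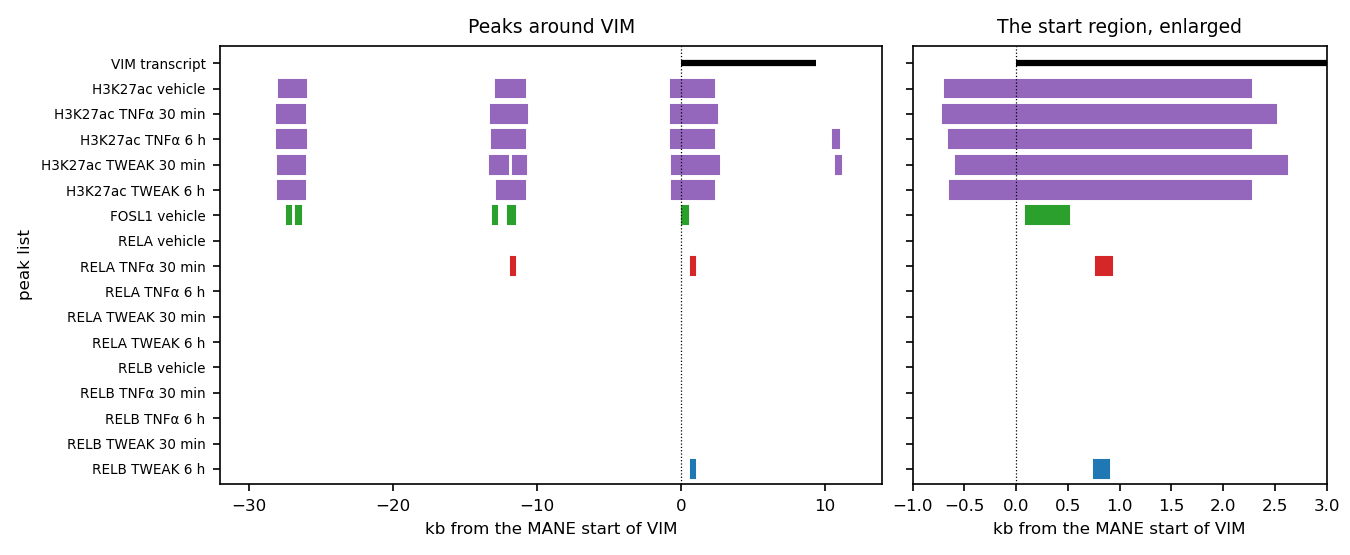
Peaks of all 16 lists around VIM against the distance in kb from the MANE start (left, 32 kb upstream to 14 kb downstream; right, the start enlarged), with the black bar as the transcript; peaks narrower than the smallest drawn width are widened for display. The RELA and RELB site in intron 1 appears in 2 lists, beside the FOSL1 peak and inside a region acetylated in all 5 lists.

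By the 10 values of best fold enrichment per list, set to 0 where there was no peak, the genes most like VIM were GPR146, GPER1 and ZFP64. Their mean absolute difference from VIM on the log2(fold + 1) scale was 0.02, 0.02 and 0.028 over the 10 lists. Lists without a peak at either gene add 0 to this mean. GPR146 and GPER1 had the same values, 5.31 for RELA after TNFα for 30 min and 8.54 for RELB after TWEAK for 6 h, and ZFP64 had 6.08 and 9.18. In all, 148 genes had peaks in exactly these 2 lists. Whether GPR146 and GPER1 share the same peaks was not examined. No other member had peaks in 2 lists, so no like genes were sought for them.

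Among the SNAI factors, zinc finger repressors that bind E-boxes, SNAI1 had a single RELA site. It was called after TNFα for 30 min 40333 bp downstream of the SNAI1 start (ENSG00000124216.4, chr20:49982980-49988886), with a fold enrichment of 5.75 and a −log10 q of 7.95. It held the κB match printed above, but no FOSL1 peak overlapped it and no H3K27ac peak was found within 500 bp of the site in any list. The start of SNAI1 itself had no RELA or RELB peak. It was acetylated in all 5 lists, with a fold enrichment of 3.51 in vehicle, 3.22 and 3.25 after TNFα for 30 min and 6 h, and 3.55 and 3.59 after TWEAK for 30 min and 6 h. A weak FOSL1 peak (fold enrichment 4.04) lay at −315 bp from the start.

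SNAI2, the SNAI1 paralog also called Slug (ENSG00000019549.13, chr8:48917598-48921740), had a RELA peak after TNFα for 6 h that was not called at 30 min. It lay 47699 bp downstream of the start, with a fold enrichment of 4.41 and a −log10 q of 4.11, and 19.6% of its list was weaker. A FOSL1 peak of fold enrichment 3.72 overlapped it, and H3K27ac was found within 500 bp in every list but that of TWEAK for 30 min. Stronger FOSL1 peaks in the window, of fold enrichment 12.4 and 9.52, lay at 50950 bp and −2190 bp from the start and were not called for RELA or RELB. The start was acetylated in all 5 lists, with fold values between 2.03 and 2.24.

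ZEB2 (ENSG00000169554.23, chr2:144364364-144521057, minus strand), a zinc finger and homeobox repressor, had 2 RELA peaks after TNFα for 30 min. Both had a fold enrichment of 5.39 and a −log10 q of 5.30, and neither was called in another list. The ZEB2 site in the gene body (chr2:144365061-144365189), 155014 bp from the MANE start, lay in a UTR of a longer ZEB2 transcript and had no FOSL1 or H3K27ac peak. The other lay 161895 bp from the ZEB2 start, beyond the gene end, and the nearest start was that of GTDC1, from which it lay at −25712 bp. It overlapped a FOSL1 peak of fold enrichment 12.2.

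That site was the single one of the 7 whose H3K27ac differed between vehicle and all treatments. Vehicle gave no H3K27ac peak there, whereas the treated lists gave peaks of fold enrichment 3.51 and 2.52 after TNFα for 30 min and 6 h and of 3.48 and 2.92 after TWEAK for 30 min and 6 h. RELA was called there after TNFα for 30 min alone. Of the 64 separate acetylated regions in the 9 windows, this was the 1 found in all 4 treated lists and not in vehicle, where the share over the genome was 0.679% of 81611 regions. A region at 145.8 kb from the ZEB2 start, with a FOSL1 peak of 6.23, was likewise absent in vehicle and had H3K27ac after TNFα for 30 min (2.44) and after TWEAK for 30 min (2.72) and 6 h (3.14), but not after TNFα for 6 h. The −log10 q of the 2 weakest peaks at the first region was 1.58 and 1.80, close to the limit for calling.

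ZEB1 (ENSG00000148516.23, chr10:31318495-31529814), the paralog of ZEB2, had no RELA or RELB peak. The nearest were at 286.9 kb from the gene body for RELA after TNFα for 30 min, at the start of ZNF438 with a fold enrichment of 4.81, and at 635.9 kb for RELB after TWEAK for 6 h, with a fold enrichment of 10.99. Its start was acetylated in all 5 lists, with fold values of 2.94 in vehicle, 3.73 and 2.89 after TNFα for 30 min and 6 h, and 3.22 and 3.15 after TWEAK for 30 min and 6 h. A FOSL1 peak of fold enrichment 12.4 lay in intron 1, 34533 bp from the start.

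TWIST1 and TWIST2 encode basic helix-loop-helix factors. TWIST2 (ENSG00000233608.5, chr2:238848032-238910534) had a RELA peak in intron 1 after TNFα for 6 h, 16280 bp from the start. It was the weakest of the 8 peaks, with a fold enrichment of 4.31 and a −log10 q of 2.92. The FOSL1 peak at the same place was the strongest of all 43 in the 9 windows, with a fold enrichment of 21.15 and rank 123 of 58864, and its summit was 37 bp from that of RELA. The region was acetylated in all 5 lists, with fold values of 5.79 in vehicle, 5.09 and 5.56 after TNFα for 30 min and 6 h, and 5.71 and 5.58 after TWEAK for 30 min and 6 h. The start of TWIST2 had no H3K27ac peak in any list, and its single FOSL1 peak was this one.

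TWIST1 (ENSG00000122691.13, chr7:19020991-19117636) had no RELA or RELB peak. The nearest RELA peak after TNFα for 30 min was at 154.1 kb from the gene body (fold enrichment 7.005). After TNFα for 6 h the nearest was at 511.6 kb (14.1), in HDAC9. RELA was also called there in vehicle (6.59) and after TWEAK for 30 min (10.9). RELB was called there after TNFα for 6 h (5.72) and after TWEAK for 6 h (9.02). The nearest peak alone was taken per list, so a RELA call there after TNFα for 30 min cannot be told. The TWIST1 start was acetylated in all 5 lists, with fold values between 2.63 after TNFα for 30 min and 3.27 after TNFα for 6 h. The FOSL1 peak of 15.25 in the window, 139342 bp from the TWIST1 start, lies within HDAC9 as well.

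Of the 7 sites, 4 overlapped a FOSL1 peak, against 54.7% of the 16096 merged RELA and RELB sites of the genome, and 4 had H3K27ac in vehicle within 500 bp, against 49.4%. The members' sites were thus close to the background in both respects. After TNFα for 30 min, 1 of the 7 sites gained and 0 lost an H3K27ac peak relative to vehicle. The share of all merged sites that gained or lost a peak is not given, so these counts have no background.

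Of the cadherins, CDH1 (ENSG00000039068.20, chr16:68737292-68835537) had no RELA or RELB peak within 50 kb. The nearest RELA peak after TNFα for 30 min was at 100.9 kb from the gene body, at −9048 bp from the start of CDH3, the neighbouring P-cadherin gene, with a fold enrichment of 4.59. At 159.7 kb a site was called for RELA after TNFα for 6 h (5.57) and for RELB after TWEAK for 6 h (6.82). Whether RELA was called there after TNFα for 30 min too cannot be told from the nearest peak of each list. The CDH1 window otherwise held 12 FOSL1 peaks, the most of any member, and 12 acetylated regions, 7 of them in all 5 lists. Some of these peaks and regions lay in the neighbouring genes CDH3 and TANGO6. H3K27ac in vehicle was found within 500 bp of 9 of the 12 FOSL1 peaks. The region at the start had fold values of 2.74 in vehicle, 3.17 and 2.79 after TNFα for 30 min and 6 h, and 2.85 and 3.00 after TWEAK for 30 min and 6 h. The strongest FOSL1 peak (9.38) lay in intron 2, 19136 bp from the start, in a region acetylated in all 5 lists. The strongest acetylation in the window, 5.35 in vehicle, belonged to the start of TANGO6.

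CDH2 (ENSG00000170558.10, chr18:27932879-28177946) showed few marks for its length. Its 345.1 kb window held no RELA or RELB peak, 2 FOSL1 peaks of fold enrichment 3.86 and 5.04, and 4 acetylated regions, of which 1 was in all 5 lists. The nearest RELA peak after TNFα was at 554.2 kb. Near its start, a short H3K27ac peak was called in vehicle alone (fold enrichment 2.47, −log10 q 1.43). With a value that close to the limit, its absence from the 4 treated lists cannot be told from the uncertainty of calling.

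H3K27ac within 1 kb of the start was called at 7 of 9 genes in vehicle, against 62.3% of all genes, ZEB2 and TWIST2 being those without. In each treated list it was 6 of 9, without CDH2, against 60.5% and 62.1% after TNFα for 30 min and 6 h, and 61.1% and 61.8% after TWEAK for 30 min and 6 h. The same 6 genes (SNAI1, SNAI2, ZEB1, TWIST1, CDH1 and VIM) had a peak at the start in all 5 lists. ZEB2 had its nearest acetylated region at −4.3 kb from the start, in every list but that of TNFα for 30 min.

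Over the 9 windows, H3K27ac peaks covered 46.2 kb in vehicle, 37.2 and 47.1 kb after TNFα for 30 min and 6 h, and 40.3 and 37.3 kb after TWEAK for 30 min and 6 h. Relative to vehicle this is 0.805, 1.02, 0.872 and 0.807, and the whole lists gave 0.813, 1.00, 0.845 and 0.837 for the same conditions. The windows thus moved with the length of the whole lists. VIM and ZEB2 went the other way at 30 min: VIM had 6.84 kb in vehicle and 7.70 and 7.96 kb after TNFα and TWEAK for 30 min, and ZEB2 had 5.37 kb and 7.59 and 8.05 kb. The other 7 genes had less at 30 min of either ligand than in vehicle, for example ZEB1 with 6.16 kb in vehicle and 3.33 and 4.69 kb after TNFα and TWEAK. At 6 h ZEB2 was back near vehicle, with 5.16 kb after TNFα and 5.28 kb after TWEAK.

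**Figure D4:**
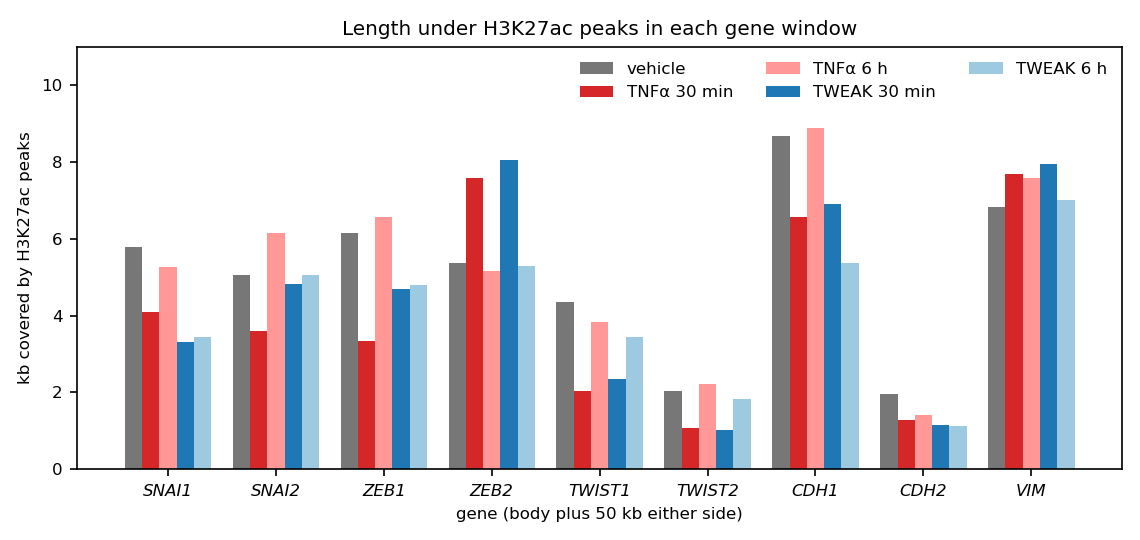
Length in kb covered by H3K27ac peaks in the window of each gene (bars) in vehicle and after TNFα or TWEAK for 30 min or 6 h. ZEB2 and VIM have more at 30 min of either ligand than in vehicle, and the other 7 genes less.

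Of the 64 acetylated regions, 28 were in all 5 lists, against 44.2% over the genome, and 5 in vehicle alone, against 5.59%. The 5 were spread over SNAI1, TWIST2, CDH1 and CDH2, the last with 2. TWIST1, CDH1 and CDH2 had no region outside the vehicle list, while ZEB2 had 4, and ZEB1 and VIM 3 each.

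FOSL1 peaks were found at 9 of 9 genes, against 90.5% of all genes, with 24.0 peaks per Mb against 22.8. Of the 43 peaks, 20 held the AP-1 motif, which stood in 44.4% of all FOSL1 peaks. H3K27ac in vehicle was found within 500 bp of 31 of the 43 peaks. The share of all FOSL1 peaks with H3K27ac is not given, so this count has no background. The best peak per gene was 21.15 at TWIST2, 16.1 at VIM, 15.25 at TWIST1, 12.4 at SNAI2, 12.4 at ZEB1, 12.2 at ZEB2, 10.0 at SNAI1, 9.38 at CDH1 and 5.04 at CDH2. Within 1 kb of the start, FOSL1 was called at VIM (16.1), SNAI1 (4.04) and CDH1 (3.75). The share of all genes with FOSL1 at the start is not given either.

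Other genes of the same program were described by 4 lists. Of their 34 genes, 23 had a RELA or RELB peak of any list in the window, against 50.7% of all genes, and 22 had a RELA peak after TNFα for 30 min, where 48.1% of all genes did. A RELB peak after TWEAK for 6 h was found at 6 of the 34, against 13.6%. RELA after TNFα for 6 h was called at 13 of the 34, against 26.8%. After TWEAK for 30 min RELA was called at 4 of the 34, against 7.58%. The windows differ in length and in the number of neighbouring genes, so a peak is not assigned to the gene named.

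Among the other EMT regulators, 5 of 11 had a peak of any list, where 50.7% of all genes did. RELA after TNFα for 30 min was called at SNAI3 (fold enrichment 22.4), the third SNAI gene, at FOXC2 (13.8) and TCF4 (11.3), both transcription factors, at TGFB1 (13.4), the ligand that induces EMT, and at the receptor gene TGFBR2 (5.28). TGFB1 also had RELB after TWEAK for 6 h (13.1), in vehicle (5.27) and after TNFα for 6 h (6.33). PRRX1, GSC, TCF3, KLF8, SOX4 and TGFBR1 had none. The peak of SNAI3, 34875 bp from its start, had a higher fold enrichment than any RELA peak at the 9 genes.

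Of the catenins and other cadherins, 7 of 8 had a peak of any list, all but CDH11, against the same 50.7%. RELA after TNFα for 30 min was called at the catenin genes CTNNA1 (11.1), CTNND1 (13.3) and JUP (10.8), and at CDH3 (4.59), CDH4 (5.11) and CDH5 (6.10). CTNNB1, the β-catenin gene, had RELA after TNFα for 6 h alone (6.46). RELB after TWEAK for 6 h was called at CTNND1 (5.60) and JUP (4.38). CDH4 had vehicle peaks of RELA (5.48) and RELB (4.73) and a peak of RELB after TWEAK for 30 min (5.13), all in a tandem repeat (self-match 0.734, 0.770 and 0.762), and its window of 788.4 kb was the longest of the list.

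Among genes that keep cells epithelial, 6 of 8 had RELA after TNFα for 30 min, against 48.1% of all genes. These were the splicing factor genes ESRP1 (3.72, at −233 bp from the start) and ESRP2 (5.57), the transcription factor genes GRHL2 (4.02) and OVOL1 (9.47), the polarity gene CRB3 (6.18) and MIR200CHG (6.47), host of miR-200 family members. ESRP2 also had RELB after TWEAK for 6 h (5.46), and OVOL2 and EPCAM had no peak. Of the mesenchymal products, 5 of 7 had RELA after TNFα for 30 min, against the same share: SPARC (11.9), TNC (6.77), S100A4 (6.95), ITGA5 (5.50, at −491 bp from the start) and ACTA2 (17.2, at −79582 bp). RELB after TWEAK for 6 h was called at SPARC (6.25) and ACTA2 (12.7). The ACTA2 window also had vehicle peaks of RELA (5.30, at −79702 bp) and RELB (4.39, at −79576 bp). RELA was called there after TNFα for 6 h (12.4) and after TWEAK for 30 min (6.55) as well. FN1 and MMP2 had no peak.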

How the data were processed

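RELA, RELB, H3K27ac and FOSL1 were measured by ChIP-seq in L3.6pl cells. Per the study's methods the authors aligned the reads to hg38 by Bowtie2 (2.5.0) and called peaks with MACS2 against input at a cutoff of 0.05, narrow for 11 lists and broad for the 5 of H3K27ac. The submitters' processing notes also name SAMtools 1.18 and deepTools 3.3.2. The deposited fold is the authors' ratio of ChIP over input, at the summit for narrow peaks and averaged over a broad peak. The deposited −log10 q, from the authors' q-value, was used for description and a filter. The deposited summit offset, another column, gave positions; broad peaks were placed by their middle.

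Peaks of the 22 autosomes, X and Y were set against GENCODE 44 genes plus 50 kb. An overlap needed 1 bp, and overlapping RELA and RELB peaks were merged into sites. An H3K27ac peak counted for a site or a FOSL1 peak up to 500 bp from its edges. Tandem repeats were peaks whose 1000 bp matched themselves, at a shift of up to 400 bp, in over 0.4 of bases. A start region was 1 kb either side of the MANE start. Sequences came from the hg38 genome. Counts over all genes or sites served as background; no test was run, since each condition has 1 list. Every RELA and RELB site of the 9 genes is named, with the 3 genes most like VIM and the called genes of the wider lists. A further gene of those lists is not reported here and enters no count of them. Members, lists and alternatives were chosen with earlier results of these data known. Scripts ran on Python 3.11.15, numpy 2.4.6 and pandas 2.3.3, and the overlap functions were tested on simulated data. Read depth per sample is unknown.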

Additional observations from a re-analysis of the deposited data

How the results depend on the processing

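Each of 10 counts was computed again with windows of 10 kb and 100 kb, with a −log10 q of at least 3, with a RELA and RELB fold of at least 5, without tandem repeats and, for sites, with other rules of overlap and of H3K27ac and FOSL1 assignment. Of 68 results, 59 stayed within 1.5 times, but many of these could not move. No site lay in a tandem repeat, so leaving repeats out could change no count. The vehicle counts of 0 could not rise with a narrower window or a stricter filter. With 10 kb windows, the RELA peaks after TNFα for 30 min fell from 5 to 3, the merged sites from 7 to 4, the sites with FOSL1 from 4 to 2 and the sites with vehicle H3K27ac from 4 to 2, by construction, since fewer bases were searched. With a fold of at least 5 there were 4 sites, of which 1 had FOSL1 and 1 vehicle H3K27ac, because 3 of the 4 FOSL1 sites were weaker. The sites that lost H3K27ac after TNFα for 30 min rose from 0 to 1 with a −log10 q of at least 3, and from 0 to 1 when H3K27ac had to overlap the site. The RELA and RELB vehicle lists gave 0 peaks under every window and threshold tried. The VIM intron 1 site was called in 2 lists under 6 alternatives chosen after seeing the data. It lies in the gene body, is no tandem repeat and has peaks above both thresholds. The windows and filters therefore could not remove it, and this result gives it no support. No paired analysis was possible because each condition has 1 list of merged replicates, and for the same reason no replicate could be left out. The depth of the lists is unknown and limits what an absent peak means.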

Other observations

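With windows of 100 kb, 1 further site appeared, a RELA peak after TNFα for 30 min upstream of SNAI1 (chr20:49915303-49915506), and the number of merged sites became 8. The nearest peaks beyond the windows were in several cases stronger than those inside. At SNAI1, RELA was called 155.6 kb from the gene body, in PEDS1-UBE2V1. The fold enrichment was 15.5 after TNFα for 6 h, 11.2 and 6.85 after TWEAK for 30 min and 6 h, and 8.20 in vehicle. At TWIST2, a site 247.4 kb from the gene body was called for RELA after TNFα for 30 min (15.7). RELB was called there after TWEAK for 6 h (8.32). The start nearest to the RELA summit was that of HDAC4, 242974 bp away. At ZEB1, a site 635.8 kb from the gene body was called for RELA after TNFα for 6 h (11.8) and, at 635.9 kb, for RELB after TWEAK for 6 h (10.99). No assignment of these sites to a gene was tested.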
